A study of Mus musculus with 4 samples.

Results

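The loci described here are the genomic neighbourhoods of 3 Wnt ligand genes, Wnt7b, Wnt10a and Wnt4, and of Axin2, a gene that responds to Wnt signals. They hold 42 Gata6 peaks of a list deposited for primary mouse keratinocytes, or 0.346% of it, and the other 12095 listed peaks lie elsewhere in the genome. A peak was counted when its midpoint lay in a fixed window: 1000 kb on chromosome 15 for Wnt7b, 300 kb on chromosome 1 for Wnt10a, 330 kb on chromosome 4 for Wnt4 and 330 kb on chromosome 11 for Axin2. The windows were chosen by gene and with peak counts of the same list known, and the Wnt7b window was laid over a stretch rich in peaks. Counts and densities are therefore a description, with no test. The cells were keratinocytes of dorsal skin from C57BL6/CBA mice with the K14deltaNLef1 genotype, in which the keratin 14 promoter drives a shortened Lef1 in basal epidermal cells, and Gata6 was overexpressed in them from a lentivirus. All 4 libraries share this background: 2 Gata6 ChIP-seq libraries made with different antibodies (from R&D Systems, and D61E4 from Cell Signaling), 1 library with a Flag antibody as negative control and 1 of input DNA. The genotype label of the library with the R&D Systems antibody ends in an extra N and was read as the same genotype. No library without the transgene or without added Gata6 was analysed here, and fibroblast feeder cells were present in the culture. The single list carries no value for any library, so antibodies, control and input could not be compared at these loci, and read depth was not analysed here.

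Wnt proteins are secreted ligands that bind Frizzled and Lrp receptors. In the canonical branch this stops the breakdown of beta-catenin, which then joins Lef and Tcf factors at target genes. The shortened Lef1 of these cells lacks the part that binds beta-catenin. In skin, Wnt signals direct hair follicle formation and renewal and restrain the sebaceous fate. Wnt7b and Wnt10a are ligands of the canonical branch with roles in hair follicles, Wnt10a also in teeth, and Wnt4 is best known from the kidney and the female reproductive tract. Axin2 is a scaffold of the complex that marks beta-catenin for breakdown and is itself switched on by Wnt signals, which makes it a negative feedback gene and a common reporter of the pathway. Gata6 is a zinc-finger transcription factor that binds the letters GATA in DNA.

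The sequence just before a gene's start is shown for the 2 members with a start window in the RefSeq promoter table used, Wnt4, whose approximate position held a listed peak, and Axin2, whose position held none. Each run is the 250 bases before the annotated start on the plus strand of build GRCm38.p6, at chr4:137277385-137277634 for Wnt4 and chr11:108920099-108920348 for Axin2. That build differs from mm9, the build of the peaks, so neither run can be laid on the peak positions below.
Wnt4: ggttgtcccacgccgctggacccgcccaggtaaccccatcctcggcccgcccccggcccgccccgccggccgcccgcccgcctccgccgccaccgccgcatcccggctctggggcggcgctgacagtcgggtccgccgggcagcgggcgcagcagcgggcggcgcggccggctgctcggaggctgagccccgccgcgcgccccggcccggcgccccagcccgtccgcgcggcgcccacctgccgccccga
Axin2: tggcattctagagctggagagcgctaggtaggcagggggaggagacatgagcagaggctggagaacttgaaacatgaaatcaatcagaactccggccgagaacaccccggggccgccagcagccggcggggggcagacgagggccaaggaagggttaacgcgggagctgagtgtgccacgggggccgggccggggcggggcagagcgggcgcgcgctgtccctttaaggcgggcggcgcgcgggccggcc
Both windows are rich in G and C, at 85.2% of bases for Wnt4 and 69.2% for Axin2. Neither held the letters GATA on either strand, which 53.6% of all 32851 windows of the table held. Neither held the longer form AGATAA, a search that overlaps with the first and that 9.99% of all windows met. Nor did either hold CTTTGA, a form of the core letters of Lef and Tcf sites, found in 13.8% of all windows. Other forms of that core were not searched for. No base is therefore in capitals. This says only that these letters were not in these windows. The sequences under the peaks were not analysed here.

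Wnt7b lay in the fullest of the complete 1-Mb windows laid at whole-Mb steps along its chromosome. The window held 28 peaks between 85060529 and 85981297, or 28.0 per Mb (95% counting interval 18.6 to 40.5), against 5.26 per Mb over the span of chromosome 15, a ratio of 5.33 (3.54 to 7.70). It took 5.34% of the chromosome's 524 peaks in 1.00% of its span. Of the 99 complete 1-Mb windows of chromosome 15, 1.01% held at least 28 peaks, which is this window alone, and the next fullest held 21. Over the genome, 9 of 2525 such windows (0.356%) held as many. In 330 kb centred on the gene there were 10 peaks, 5.77 times the chromosome's density (2.76 to 10.6), so the density close to Wnt7b was like that of the whole window. With 2000 kb around the window's centre the ratio was 3.14. Counting intervals treat peaks as independent and do not cover peak calling. Here and at the other loci, the chromosome's density and the background windows take in stretches without peaks and were not limited to genes. The ratios are therefore no comparison with other genes.

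Gene positions in build mm9 are known here only to the nearest 10 kb, so a peak is given as inside or outside a rounded position, and exons, introns and start sites are not stated. From here on, before and beyond mean lower and higher coordinates, whatever the strand of the gene. The rounded position of Wnt7b, 85370000 to 85410000, held 5 peaks. The first 3 stood in a row 1.94 to 2.08 kb apart: peak 114 from 85373050 to 85373199, peak 115 from 85375132 to 85375276 and peak 345 from 85377064 to 85377221. Here and below a peak is called by its name number, the whole number in its deposited name, which counts anew on each chromosome. What the number ranks is stated by no label or header. Peak 1346 lay from 85384041 to 85384179 and peak 913 from 85405156 to 85405190. So the peaks at the Wnt7b gene itself were mixed in number: 114 and 115 lay at the 19.5th and 19.7th percentile of the numbers listed on chromosome 15, peak 345 at the 50th, peak 913 at the 87.8th and peak 1346 at the 99.0th. Peak 56 followed about 20 kb beyond the rounded position, from 85429618 to 85429771, at the 9.92nd percentile.

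The other peaks of the window fell on both sides of the gene. By 100-kb bins, the fullest stretch was 85800001 to 85900000 with 7 peaks, followed by 85300001 to 85400000, the bin with most of the Wnt7b position, with 5. The remaining 8 bins held 1 to 3 each. The lowest numbers of the window belonged to the fullest bin: peak 18 (85856327 to 85856485), peak 23 (85890416 to 85890541) and peak 28 (85891963 to 85892090), about 446 to 482 kb from Wnt7b. The fullest bin was thus some way from Wnt7b, and the window holds other genes. In the gene order of the RefSeq table for GRCm38.p6, the nearest protein-coding genes are 7530416G11Rik on one side and Ppara, a fatty acid sensing nuclear receptor, on the other. The let-7 microRNA genes Mirlet7c-2 and Mirlet7b lie between Wnt7b and Ppara. Which gene a peak belongs to cannot be read from the list.

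**Figure D1:**
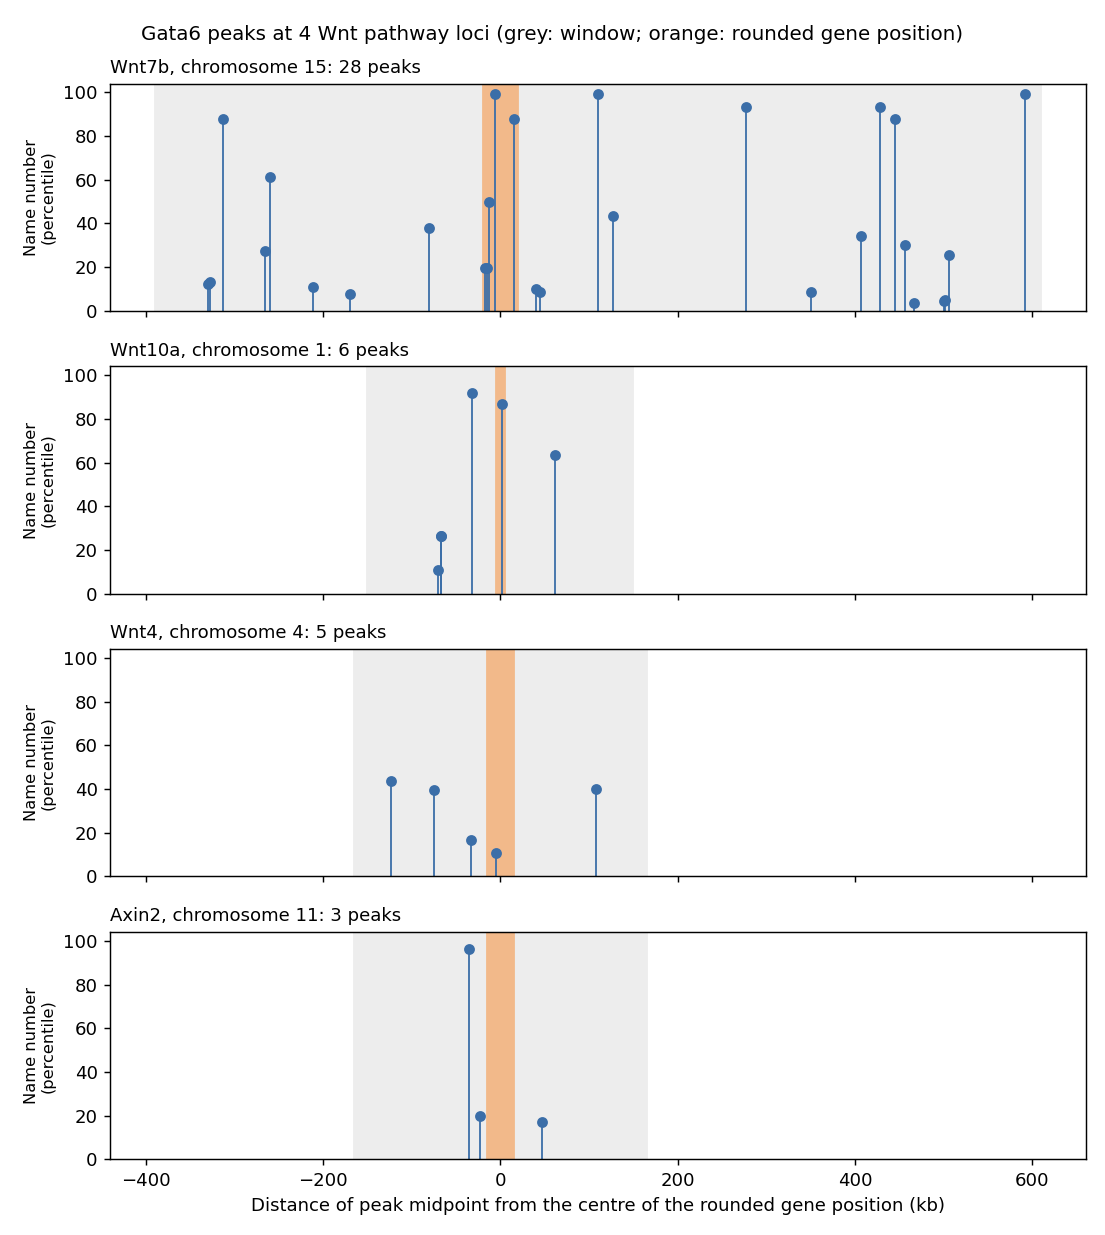
Position of each listed Gata6 peak (x axis, kb from the centre of the rounded gene position) and percentile of its name number among the listed peaks of its chromosome (y axis, low numbers at the bottom) at Wnt7b, Wnt10a, Wnt4 and Axin2; grey marks the window, orange the rounded gene position (drawn 10 kb wide for Wnt10a, for which 1 position is given). The 28 peaks at Wnt7b lie on both sides of the gene, while the 3 at Axin2 all lie outside its orange band.

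Wnt10a had 6 peaks in its 300 kb, or 20 per Mb (7.34 to 43.5), 4.25 times the 4.70 per Mb of chromosome 1 (1.56 to 9.26). Of 645 complete windows of that length on chromosome 1, 6.20% held at least 6 peaks, and 6.67% of those in the genome did. Of these, 3 formed a tight group about 67 to 71 kb before the rounded gene position of 74840000. Peak 100 lay from 74768977 to 74769140, peak 266 from 74772851 to 74772966 and peak 267 from 74773341 to 74773451. Midpoints of the last pair were 0.487 kb apart, the closest pair at any of the 4 loci. Peak 1712 lay from 74807868 to 74808033. Peak 1463, from 74841196 to 74841326, lay about 1 kb from the rounded Wnt10a position, less than the rounding of that position. Peak 813 lay on the far side, from 74901318 to 74901471. The peak nearest to Wnt10a therefore had a high number (86.6th percentile), as did peak 1712 (92.0th), and the low numbers were in the distant group (10.9th to 26.5th). In gene order, Wnt10a stands between Wnt6, another Wnt ligand gene, and Cdk5r2. The group of 3 could not be assigned to either Wnt gene.

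Wnt4 had 5 peaks in 330 kb, or 15.2 per Mb (4.92 to 35.4), 3.86 times the 3.92 per Mb of chromosome 4 (1.25 to 9.02). With the window at 50% of its length the ratio was 4.64 and its interval, 0.956 to 13.5, contained 1. Of 460 complete windows of that length on the chromosome, 8.7% held at least 5, and 11.9% of those in the genome did. Peak 68, from 136839439 to 136839574, lay inside the rounded gene position of 136830000 to 136860000. Peak 105, from 136811525 to 136811671, lay about 18 kb before it. These were also the lowest numbers of the window, at the 10.6th and 16.6th percentile of chromosome 4. The other peaks were 323 (136721047 to 136721210), 298 (136769494 to 136769651) and 299 (136952847 to 136952969), 60 to 109 kb from the rounded position and at the 39.8th to 43.6th percentile. At Wnt4, unlike at Wnt10a, the peaks nearest to the gene thus had the lowest numbers, a contrast between 5 and 6 peaks that was not tested. The neighbours of Wnt4 in gene order are Zbtb40 and Cdc42.

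Axin2 had 3 peaks in 330 kb, or 9.09 per Mb (1.87 to 26.6), against 8.09 per Mb on chromosome 11, a ratio of 1.12 (0.232 to 3.28). As many peaks were found in 41.3% of 358 complete windows of that length on chromosome 11 and in 23.5% of those in the genome, so this count was near the background of its chromosome. No listed peak lay inside the rounded position of 108780000 to 108810000. Peak 2317 lay from 108759897 to 108760014, about 20 kb before it, and peak 214 from 108772330 to 108772424, about 8 kb before it. Peak 181 lay from 108841865 to 108842006, about 32 kb beyond. The stretch between peaks 214 and 181, which contains the whole rounded position, was 69.6 kb long. The median distance between neighbouring peaks on chromosome 11 was 38.2 kb. A stretch picked for covering a gene position tends to be longer than the median, so it cannot be called unusually empty from these values. Peaks 181 and 214 were at the 17.1st and 19.8th percentile and peak 2317 at the 96.1st. Axin2 stands between Cep112 and Rgs9 in gene order.

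**Figure D2:**
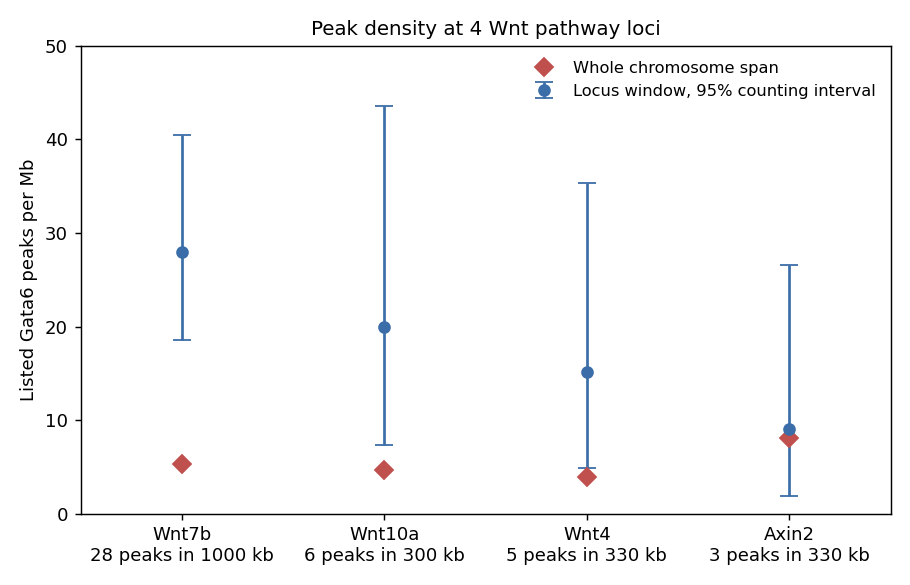
Listed Gata6 peaks per Mb (y axis) in the window of each locus (x axis; blue points, bars are 95% counting intervals of 1 count each) and over the span of the same chromosome (red diamonds). At these window lengths the intervals of Wnt7b, Wnt10a and Wnt4 lie above the chromosome's density, and that of Axin2, 1.87 to 26.6, contains it. The windows were chosen with counts known and the bars treat peaks as independent, so this is no test. Of complete windows of the same length on the chromosome, 1.01% (Wnt7b), 6.2% (Wnt10a), 8.7% (Wnt4) and 41.3% (Axin2) held at least as many peaks.

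No member lay directly at a window edge. The members nearest to an edge were peak 1352 of Wnt7b, 18.8 kb inside, and peak 323 of Wnt4, 41.1 kb inside. The nearest excluded peaks were number 671 on chromosome 15, 12.5 kb beyond the Wnt7b window, number 862 on chromosome 11, 16.2 kb before the Axin2 window, and number 247 on chromosome 1, 24.7 kb beyond the Wnt10a window. Beyond peak 181 of Axin2 the next listed peak was 381 kb away.

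Close neighbours were found at Wnt7b and Wnt10a. At Wnt7b 12 of 28 peaks had another within 5 kb, against 21.2% on chromosome 15. At Wnt10a 3 of 6 did, against 24.9% on chromosome 1. At Wnt4 and Axin2 0 of 5 and 0 of 3 did, against 19.8% on chromosome 4 and 22.4% on chromosome 11. Over the 4 loci this made 15 of 42 peaks, or 35.7% (95% Wilson interval 23.0 to 50.8), against 23.2% of all listed peaks, a value inside the interval. Without the Wnt7b window the share was 21.4% of 14 peaks. A window chosen for being full brings peaks closer together, so this share is not independent of the choice. The 7 close pairs at Wnt7b were 1.55 to 4.80 kb apart, the closest being peaks 23 and 28. The longest empty stretch inside that window was 150.2 kb, and the median distance between its peaks was 21.1 kb, against 44.5 kb on chromosome 15.

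In 2 of the 9 close pairs the numbers were consecutive, 114 and 115 at Wnt7b and 266 and 267 at Wnt10a, against 3.13% of the 1503 neighbouring pairs within 5 kb in the whole list. Both pairs were singled out after their values were seen. Consecutive numbers also joined distant peaks: 47 and 48 in the Wnt7b window were 306 kb apart, and 298 and 299 at Wnt4 were 183 kb apart. With peaks taken in order of number, each unbroken rise in position was counted as 1 series, however short. Chromosome 15 had 58 such series, and the 28 peaks at Wnt7b came from 21 of these. Series were short among the low numbers: peak 18 was in series 10, and peak 74, at the 13.0th percentile, already in series 29. The count of 21 therefore depends on how many members have low numbers. Peaks 1346, 1348 and 1352 were all in the last series. Between members that follow each other in number and position, 10 numbers at Wnt7b were in no listed name, for example 3 between 1348 and 1352. These missing numbers fell in 5 of 7 such steps, the lowest of them following peak 910.

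Low name numbers were frequent at Wnt7b. Of its 28 peaks, 10 had a number from 1 to 100, from 18 to 74, against 17% of the listed peaks of chromosome 15 and 15% of all listed peaks. They were 11.2% of the 89 such peaks on the chromosome. No other complete 1-Mb window starting at a whole Mb held as many (1 of 2525 in the genome, or 0.0396%). The next held 8, and the next on chromosome 15 held 7. Shifted windows were not counted for low numbers. The 10 lay between 85060529 and 85892090, so windows shifted by 50% of their length would split them, and the rank holds for whole-Mb windows only. With numbers 1 to 200 counted, the window again ranked highest, with 15 against 13. With numbers 1 to 50 it held 6 and was tied with 6 other windows behind 1 that held more. A fuller window can hold more peaks of any number, and these limits were set after the data were seen, so the ranks are a description. Numbers count anew on each chromosome, so a fixed limit can favour windows of short chromosomes. Peaks numbered 1 to 100 were 89 over 99.7 Mb on chromosome 15 and 99 over 193.7 Mb on chromosome 1. The ranks over the genome do not adjust for this. High numbers were present too: 8 of the 28 were among the highest 25% of the chromosome, with a top number of 1352 of 1421.

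**Figure D3:**
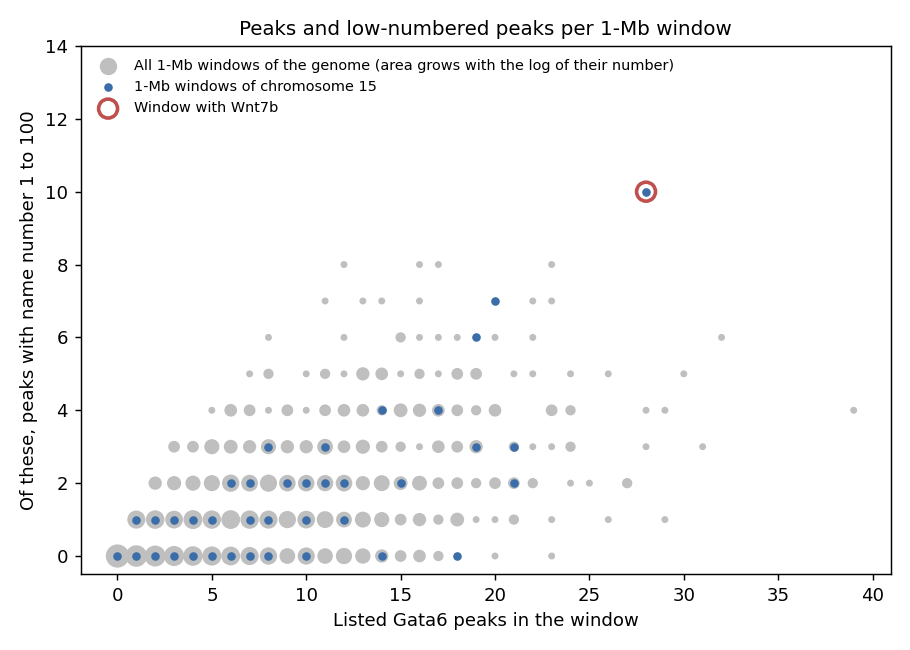
Listed Gata6 peaks per complete 1-Mb window (x axis) and how many of them have a name number from 1 to 100 (y axis), for 2525 windows of the genome (grey, area grows with the log of the number of windows at that point) and the 99 windows of chromosome 15 (blue). The window with Wnt7b (red ring) holds 28 peaks and 10 low numbers, and the next highest window holds 8 low numbers. Numbers count anew on each chromosome, and these counts are not adjusted for chromosome length. All windows start at whole Mb, as the Wnt7b window does, and shifted windows were not counted.

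Over the 4 loci, 17 of 42 peaks (40.5%, 95% Wilson interval 27.0 to 55.5) were among the lowest 25% of numbers of their chromosome, against 24.9% of all listed peaks. By locus these were 12 of 28 at Wnt7b, 1 of 6 at Wnt10a, 2 of 5 at Wnt4 and 2 of 3 at Axin2, so that 12 of the 17 came from Wnt7b. Among the highest 25% were 11 of 42 (26.2%), near the 25.1% of all listed peaks. Neither share was tested. The intervals here treat peaks as independent, although 28 of the 42 come from 1 window chosen for being full, so they serve only as a description. Without the Wnt7b window the share of low numbers was 35.7% (16.3 to 61.2), an interval that contains the 24.9% of the list. It also contained it with windows of 50% of their length (24.5 to 61.2) and of 200% (23.4 to 47.7).

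The width of a member is that of the interval in the overlap list, which need not be that of the whole binding site. Members had a median width of 131.5 bp (range 35 to 166), against 143 bp in the whole list, and 26 of 42 (61.9%, 46.8 to 75) were narrower than the median of their chromosome, against 49.1% of all peaks, a value inside the interval. The median was below that of the chromosome at Wnt7b (127.5 against 142 bp), Wnt10a (142.5 against 144 bp) and Axin2 (118 against 143 bp) and above it at Wnt4 (147 against 142 bp). Of all 42, 3 (7.14%) were 83 bp wide or narrower, against 9.11% in the list, and all 3 were at Wnt7b. They were peak 913 inside the rounded Wnt7b position (35 bp), peak 74 (53 bp) and peak 167 (74 bp), the last 2 named after their values were seen. Peak 70, the widest at Wnt7b with 164 bp, lay 1.93 kb from peak 74. The widest member, peak 1712 at Wnt10a, was 166 bp wide, the upper end of widths in the list. How many other listed peaks share that width was not counted. Whether number and width are related was not analysed. Of these peaks named for their widths, peak 74 was at the 13.0th percentile in number and peak 1712 at the 92.0th.

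**Figure D4:**
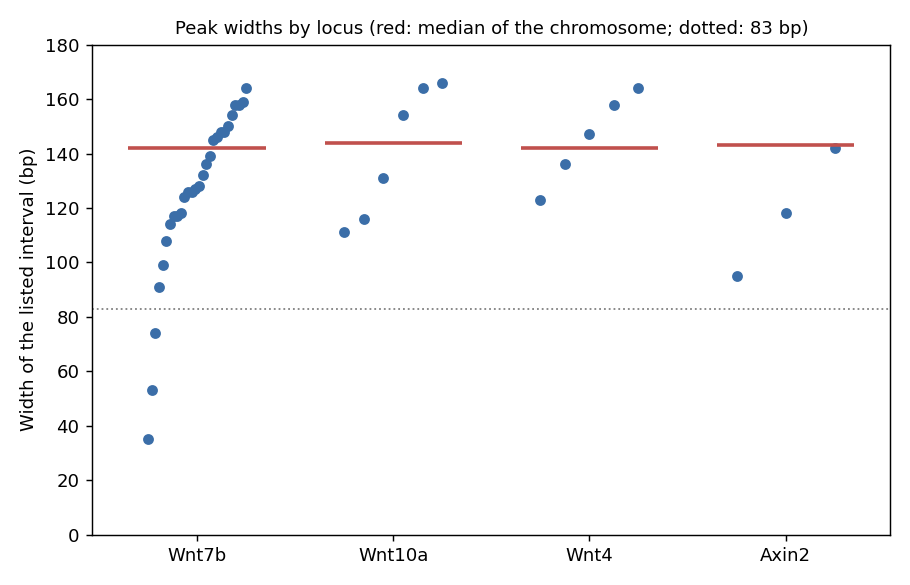
Width in bp (y axis) of each of the 42 listed intervals by locus (x axis; points sorted by width within a locus), with the median of the locus's chromosome (red line) and 83 bp (dotted line). Only the Wnt7b locus, with 28 of the 42 intervals, has any under the dotted line, at 35, 53 and 74 bp. In the whole list 9.11% are 83 bp wide or narrower. All 3 at Axin2 lie at or below 142 bp, under their chromosome's median of 143 bp, and 49.1% of all listed peaks lie below the median of their chromosome.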

How the data were processed

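The deposited table is 1 list of 12137 Gata6 peaks for the series of 4 ChIP-seq and input libraries. Per the submitters' processing notes, BWA, HOMER and build mm9 were used, with versions and roles not given in the sources used here. The lists intersected and the thresholds are not given either. The score that the authors deposited is 0 in every row, and strand is plus throughout, so neither was used. Deposited starts count from 0 and are printed from 1. Windows and gene positions rounded to 10 kb came with the choice of loci, which was made with earlier results of these data known, as were all lists here. No genome or annotation of mm9 was used here, so peak sequences, gene parts and other Wnt pathway genes were not analysed.

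Peaks were placed by midpoint. Densities of chromosomes are per Mb between their outermost peaks. Background windows were complete tiles of the same length within that span, starting at multiples of that length. They were not limited to stretches with genes, and the median tile held 0 peaks on chromosomes 1 and 4. Intervals are exact Poisson (densities) or Wilson (shares), at 95%, treat peaks as independent and cover counting error only. Peaks named were all of a locus with at most 8; at Wnt7b, those within 20 kb of the gene, the 3 lowest numbers, the closest pair, the widest and the narrowest, and others are said to be chosen later or serve as examples. No test between groups was possible. Functions were checked on simulated data. Python 3.11.15, NumPy 2.4.6, pandas 2.3.3, SciPy 1.17.1 and matplotlib 3.10.9 were used. Promoter windows are from RefSeq, build GRCm38.p6.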

Additional observations from a re-analysis of the deposited data

How the results depend on the processing

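No paired analysis was possible because the list holds no values per library, and for the same reason none was dropped in turn. Of 46 alternative values, 39 stayed inside the interval of the reported value (or, for a count, within 1.5 times) and 7 did not. Some of the 39 could not differ. A 330-kb window around the gene is the reported window itself at Wnt4 and Axin2. No peak lay across a window edge, so counting any overlapping base left every ratio unchanged. Intervals of the smaller loci are wide, 0.232 to 3.28 for the Axin2 ratio, so even 2.25 counted as inside. The count of 39 is therefore no measure of how stable the results are. The density ratio at Wnt7b fell to 3.14 with the window widened to 200%. With tiles shifted by 50% of their length, 0% of windows on chromosome 15 held as many peaks as the Wnt7b window. That shift also split the Wnt7b window itself between neighbouring tiles, and neither of these held as many. The 0% therefore does not show the Wnt7b stretch to be rarer, and its count depends on where the tiles start. The share with a neighbour was 4.76% within 1 kb and 59.5% within 20 kb, against 6.66% and 51.4% of all listed peaks, and 21.4% within 5 kb without Wnt7b. The share in the lowest 25% became 69.0% when the number was taken as a share of the chromosome's highest, against 54.3% in the list. Low numbers at Wnt7b were 6 with the limit at 50. The Axin2 ratio ranged from 0.749 with the window at 200% to 2.25 at 50%, and the Wnt10a ratio rose to 8.5 at 50%. At 50% these windows still held all 3 peaks of Axin2 and all 6 of Wnt10a, so both ratios rose only through the shorter length. The smaller loci rest on 3 to 6 peaks, and differences between loci were not tested. Leaving out Wnt7b and the limits of 50 and 200 were chosen after seeing the data. Under the 6 settings run for each ratio, those of Wnt7b, Wnt10a and Wnt4 stayed at 3.09 or above, but the interval of Wnt4 at 50%, 0.956 to 13.5, contained 1.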
